A study of Mus musculus with 6 samples.

Results

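The Zfp genes are mouse genes for zinc finger proteins, named Zfp and a number. The members described here were chosen by symbol and by level: Zfp followed by digits only, without Zfp36, and a mean of at least 1 FPKM (fragments scaled to transcript length and library depth) over the 6 libraries. This gave 275 members among 348 Zfp symbols and 16135 genes listed in any library, and 73 symbols lay under the level. The level chose the members, so their levels are a description. The rule uses no difference between subsets, but the set was picked with earlier results of these data known.

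The cells were common dendritic cell progenitors (CDPs), which give rise to dendritic cells, from the bone marrow of wildtype C57BL/6 mice aged 6 to 8 weeks. They were sorted by flow cytometry into CD115+Ly6C-, CD115+Ly6C+ and CD115-Ly6C- cells, 2 samples of each, and polyadenylated RNA was sequenced. No treatment or transgene is named. Whether a subset’s 2 samples came from different mice is not stated. The p-values therefore reflect the spread of these samples alone, and that spread may be technical. In bulk RNA, fewer cells of a type and less RNA per cell cannot be told apart.

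Most zinc fingers of these proteins are short loops in which a zinc ion is held by 2 cysteines and 2 histidines, and a row of fingers reads a stretch of DNA, or in some proteins RNA. Many members carry a KRAB box, which recruits the co-repressor encoded by Trim28 and through it the histone methyltransferase encoded by Setdb1. KRAB zinc finger proteins are best known for silencing retroelements and for protecting imprints, and their genes arose by tandem duplication and lie in clusters. Others act in blood cell development, in chromatin complexes or in RNA metabolism.

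The first finger that fits the canonical spacing is given as coding DNA for 3 members, since these genes recur in the results and show the repeated unit that defines the set. Capitals mark the codons of the 2 cysteines and 2 histidines, and each stretch codes for 21 residues. The sequences run 5′ to 3′ and come from the GENCODE transcripts of GRCm38.
Zfp266, chr9:20499785-20499847, minus strand: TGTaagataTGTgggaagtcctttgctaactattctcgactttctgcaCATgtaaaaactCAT
Zfp62, chr11:49215459-49215521, plus strand: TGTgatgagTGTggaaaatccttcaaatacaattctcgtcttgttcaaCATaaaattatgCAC
Zfp120, chr2:150117933-150117995, minus strand: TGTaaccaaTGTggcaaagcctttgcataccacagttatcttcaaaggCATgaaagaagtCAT
All 3 stretches lie in protein-coding exons. Fingers were counted with a looser pattern, which also allowed wider spacing within the cysteine pair and within the histidine pair. By this count Zfp62 had 26 fingers, and Zfp266 and Zfp120 had 9 each. Over the 275 members the number of fingers ran from 0 to 37 with a median of 11. The KRAB pattern was found in 154 members and not in 121, and a separate pattern, for the SCAN box, in 10. The KRAB pattern was a text search in translated coding sequence and can miss diverged boxes.

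Levels were low for most members. The mean FPKM over the 6 libraries ran from 1.02 to 275.7 with a median of 5.75, against a median of 14.3 for all genes with a mean of at least 1 FPKM. A mean of 1 to 5 FPKM was found for 123 members, 5 to 10 for 71, and at least 10 for 81. KRAB members had a median of 5.64 FPKM and the others 5.87 FPKM. In all 3 subsets 255 members had a mean of at least 1 FPKM, and the other 20 fell under it in at least 1 subset. Just inside the level stood Zfp108 at 1.02 FPKM, Zfp383 at 1.02 FPKM and Zfp248 at 1.04 FPKM. Just outside stood Zfp652 at 0.97 FPKM, Zfp169 at 0.967 FPKM and Zfp442 at 0.955 FPKM. Genes known for roles in these lineages or in imprinting that lay under the level were Zfp366, a co-regulator of dendritic cells, at 0.0317 FPKM, Zfp57, which protects imprints, at 0.197 FPKM, and Zfp318 at 0.26 FPKM.

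The most abundant members differed little between subsets. Zfp706 had a mean of 276 FPKM, Zfp207 of 236 FPKM and Zfp422 of 192 FPKM, followed by Zfp330 at 71.5 FPKM, Zfp825 at 57.1 FPKM and Zfp637 at 41.0 FPKM. Zfp207 binds microtubules and the spindle checkpoint protein Bub3. Its level was 488 and 522 CPM (counts scaled to library depth with TMM) in CD115+Ly6C-, 504 and 514 CPM in CD115+Ly6C+, and 476 and 489 CPM in CD115-Ly6C-. The libraries of the 3 subsets lay within this narrow band, and none of the 6 most abundant members passed the test in any comparison. Zfp706 had 1515 and 1240 CPM in CD115+Ly6C- against 1010 and 1214 CPM in CD115+Ly6C+ and 1026 and 1130 CPM in CD115-Ly6C-. Both CD115+Ly6C- libraries were above the other 4, yet the edgeR adjusted p was 0.19 against CD115+Ly6C+ and 0.12 against CD115-Ly6C-. Counts of Zfp706 were not whole in 3 libraries and those of Zfp825 in all 6. RSEM had then split reads between similar sequences, so both levels are uncertain.

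Total counts lay between 17961541 and 19450329 per library. The sorted proteins could be followed only through their genes. Csf1r, the gene of CD115, stood at 414 to 553 CPM in the 4 CD115+ libraries and at 213 and 259 CPM in the others. Ly6c2 stood at 1439 and 1400 CPM in CD115+Ly6C+, against 41.8 to 188 CPM in the other 4 libraries. Flt3 had 666 and 657 CPM in CD115+Ly6C-, 373 and 342 CPM in CD115+Ly6C+, and 1139 and 1063 CPM in CD115-Ly6C-, and Kit had 108 and 94.9 CPM, 58.8 and 48.9 CPM, and 189 and 169 CPM. Both receptor genes marking early progenitors were lowest in CD115+Ly6C+ and highest in CD115-Ly6C-, without overlap. The summed level of 7 neutrophil genes was 3928 and 3649 CPM in CD115+Ly6C+, against 142 to 853 CPM elsewhere. That of 5 B cell genes was 23.0 and 20.8 CPM in CD115-Ly6C- and 0.42 to 2.76 CPM elsewhere, and that of 4 plasmacytoid dendritic cell genes 798 and 899 CPM against 371 to 526 CPM. Summed macrophage genes had 4.67 and 4.51 CPM in CD115+Ly6C-, 9.48 and 12 CPM in CD115+Ly6C+, and 1.51 and 1.54 CPM in CD115-Ly6C-. Summed erythroid, T cell, NK cell and megakaryocyte genes reached at most 18.5 CPM per list, and no marker gene was at 0 in all libraries. The neutrophil, macrophage, B cell and plasmacytoid sums and Flt3 and Kit moved with the subsets compared, and their part in the results was not tested.

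The Zfp set as a whole was lowest in CD115+Ly6C+ and highest in CD115-Ly6C-. Their share of all counts was 1.02% and 0.972% in the CD115+Ly6C- libraries. It was 0.827% and 0.838% in the CD115+Ly6C+ libraries and 1.11% and 1.09% in the CD115-Ly6C- libraries. Their median level was 5.29 and 5.58 FPKM in CD115+Ly6C-, 4.65 and 4.36 FPKM in CD115+Ly6C+, and 7.65 and 6.64 FPKM in CD115-Ly6C-. On both measures the libraries of the 3 subsets did not overlap. The median of all genes with a mean of at least 1 FPKM had the same order, also without overlap, at 13.5 and 13.8 FPKM, 13.3 and 12.8 FPKM, and 16.1 and 15.2 FPKM. The order of means CD115+Ly6C+, CD115+Ly6C-, CD115-Ly6C- from low to high was found in 135 members (49.1%), against 29.6% of all genes tested. The opposite order was found in 21 members (7.64%), against 27.1% of all genes tested. The 3 comparisons share libraries, so they are not independent of each other.

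**Figure D1:**
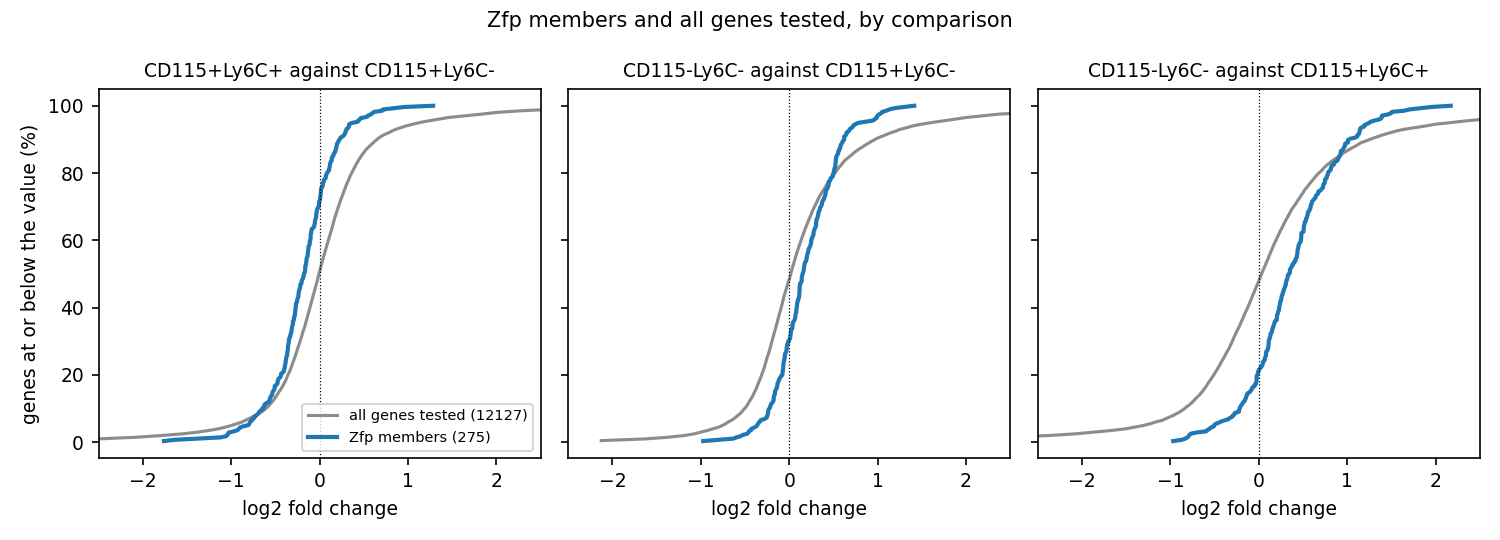
Cumulative share of genes (y axis, %) by log2 fold change (x axis) in the 3 comparisons, for the 275 members (blue) and the 12127 genes tested (grey). The blue curve lies left of the grey one at its middle in CD115+Ly6C+ against CD115+Ly6C- (medians -0.18 and -0.01) and right of it in CD115-Ly6C- against CD115+Ly6C+ (medians 0.35 and 0.03).

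CD115-Ly6C- against CD115+Ly6C+ gave the widest difference. By edgeR adjusted p, 80 of 275 members were higher in CD115-Ly6C- (29.1%), against 20.1% of all genes tested. Only 9 members were lower (3.27%), against 19.2% of all genes tested. The median log2 fold change of the members was 0.35, against 0.03 for all genes tested, and 216 members (78.5%) had a positive value. Among the 255 members at 1 FPKM or more in every subset, 70 (27.5%) were higher and 9 (3.53%) lower. Their median was 0.30 and their largest log2 fold change 1.51. Of the other 20 members, 18 reached 1 FPKM in 2 subsets and 2 in 1 subset. These 20 passed the level rule through the subsets where they were high, so their direction is no support. All 20 had positive values, with a median of 1.14, and 10 were higher. Scaling by library totals moved the median of all genes to 0.22 and changed the calls among all genes from 2435 upward and 2333 downward to 3504 and 1518. The members were then 125 higher and 3 lower, against 28.9% and 12.5% of all genes tested. A scaling shifts every gene alike, so it leaves the gap of 0.32 between the 2 medians as it was. With 1 library left out, 37 members were higher without CD115+Ly6C+ sample 2, 39 without CD115-Ly6C- sample 1 and 47 without CD115-Ly6C- sample 2, and 1, 5 and 3 were lower. The shares higher were then 13.5%, 14.2% and 17.1% of members against 11.9%, 12.1% and 13.97% of all genes tested, closer to the background than with all 6 libraries. The shares lower were 0.364%, 1.82% and 1.09% of members against 11.99%, 11.9% and 13.1% of all genes tested.

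Transcript length moved with this comparison in all genes, so the members were set against genes of similar length. The members' transcripts had a median length of 3293 nucleotides (883 to 14232), against 2810 for all genes tested. Among the other genes the median log2 fold change rose from -0.51 in the shortest of 10 length bands to 0.34 in the ninth and 0.32 in the longest. In each of the 10 bands the members' median lay above that of the other genes. In band 6 from the shortest, 2810 to 3272 nucleotides, 15 of 40 members were higher, against 20.2% of the other genes. The medians there were 0.46 and 0.07. In the longest band 14 of 31 members were higher and 1 was lower, against 32.1% and 5.84% of the other genes. The medians there were 0.52 and 0.32. In band 3, 0 of 10 members were higher, against 12.1% of the other genes. In band 4 it was 3 of 29 against 15.7%, and in band 5 it was 7 of 42 against 20.4%. The share of members higher was thus under that of the other genes in bands 3 to 5, and above it in the remaining bands. Other genes with the members' mix of lengths would have 23.3% higher and 14.7% lower with a median of 0.12. With a smooth length trend taken out of each library, 48 members were higher and 15 lower (17.5% and 5.45%), against 15.6% and 16.2% of all genes tested, and the members' median was 0.20. The share of members higher was then near that of all genes, and the share lower stayed under it. By mean level in place of length, other genes would have 22.4% higher and 15.5% lower with a median of 0.10. What length stands for in these libraries was not tested.

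**Figure D2:**
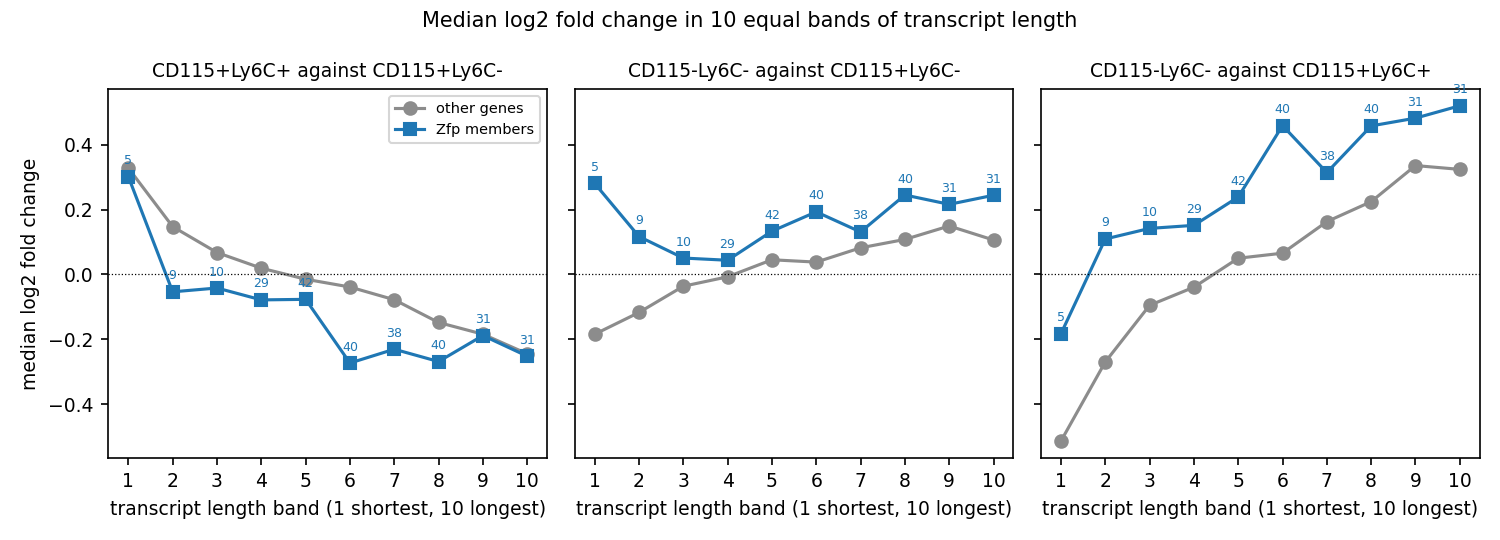
Median log2 fold change (y axis) in 10 equal bands of transcript length (x axis, 1 shortest, 10 longest) for the members (blue squares, with the number of members) and the other genes tested (grey circles). In CD115-Ly6C- against CD115+Ly6C+ the blue squares stand above the grey circles in all 10 bands, and both rise with length; the 3 shortest bands hold 5, 9 and 10 members.

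The members with the largest difference rose in CD115-Ly6C- from a low level in CD115+Ly6C+. Zfp608, Zfp2 and Zfp507 were among the 20 members under 1 FPKM in at least 1 subset. Zfp608, reported to restrain the recombination genes Rag1 and Rag2 in thymocytes, had 22.7 and 17.4 CPM in CD115+Ly6C-, 7.14 and 4.67 CPM in CD115+Ly6C+, and 24.6 and 28.8 CPM in CD115-Ly6C-. Both CD115+Ly6C+ libraries were far under the other 4. The log2 fold change against CD115+Ly6C+ was 2.17 ± 0.25 (SE; edgeR adjusted p = 0.00035). Zfp2 had 9.76 and 6.21 CPM in CD115+Ly6C-, 2.23 and 2.87 CPM in CD115+Ly6C+, and 9.66 and 10.1 CPM in CD115-Ly6C-, a log2 fold change of 1.95 ± 0.32 (edgeR adjusted p = 0.0019). Zfp664 had 19 and 24.3 CPM, 14.2 and 8.92 CPM, and 34.3 and 31.3 CPM in the same order, a log2 fold change of 1.51 ± 0.24 (edgeR adjusted p = 0.0016). Here the 3 subsets did not overlap, with CD115-Ly6C- on top. Zfp507 likewise ran from 5.18 and 3.05 CPM in CD115+Ly6C+ through 10.7 and 7.27 CPM in CD115+Ly6C- to 15.4 and 13.9 CPM in CD115-Ly6C- (log2 fold change 1.83 ± 0.31, edgeR adjusted p = 0.0025). The calls of these 4 members held with each library left out in turn.

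Members at a higher level gave smaller and tighter differences. Zfp266, a KRAB member, had 140 and 143 CPM in CD115+Ly6C-, 76.9 and 71.8 CPM in CD115+Ly6C+, and 141 and 158 CPM in CD115-Ly6C-. Only the CD115+Ly6C+ libraries stood apart. The log2 fold change was 1.01 ± 0.11, with the smallest edgeR adjusted p of the set (0.00026). Zfp62 had 122 and 126 CPM, 95.6 and 92.8 CPM, and 151 and 149 CPM in the order of subsets used above, a log2 fold change of 0.67 ± 0.10 (edgeR adjusted p = 0.0011). Zfp292 had 67.2 and 51.5 CPM, 37.6 and 35.9 CPM, and 72.5 and 75.3 CPM, a log2 fold change of 1.01 ± 0.15 (edgeR adjusted p = 0.0012). All 3 calls held with each library left out in turn. Of the 80 members higher in CD115-Ly6C-, 21 kept the call with each library left out in turn, and 45 kept it with the length trend removed.

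Also among the 8 largest rises were Zfp551 (log2 fold change 1.71), Zfp987 (1.65), Zfp219 (1.5) and Zfp248 (1.47). Zfp219 had 20.3 and 16.8 CPM in CD115-Ly6C- against 7.92 and 5.21 CPM in CD115+Ly6C+ and 6.66 and 10.3 CPM in CD115+Ly6C-. It was high in CD115-Ly6C- alone, its call held with each library left out, and its gene overlaps Arhgef40 and Tmem253. The calls of the other 3 did not all hold: the edgeR adjusted p was 0.073 for Zfp551 without CD115+Ly6C+ sample 2, 0.077 for Zfp987 without CD115+Ly6C+ sample 1 and 0.099 for Zfp248 without CD115+Ly6C+ sample 2. Without CD115-Ly6C- sample 1 it was 0.064 for Zfp987 and 0.067 for Zfp248, and without CD115-Ly6C- sample 2 it was 0.070 for Zfp551 and 0.055 for Zfp248. These 3 members had at most 7.40 CPM in any library, and all were among the 20 under 1 FPKM in at least 1 subset. Zfp248 had 0.65 and 0.33 FPKM in CD115+Ly6C+ and 1.61 and 1.5 FPKM in CD115-Ly6C-. It reached its mean of 1.04 FPKM through the subsets where it was high, so its rise is no independent support.

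**Figure D3:**
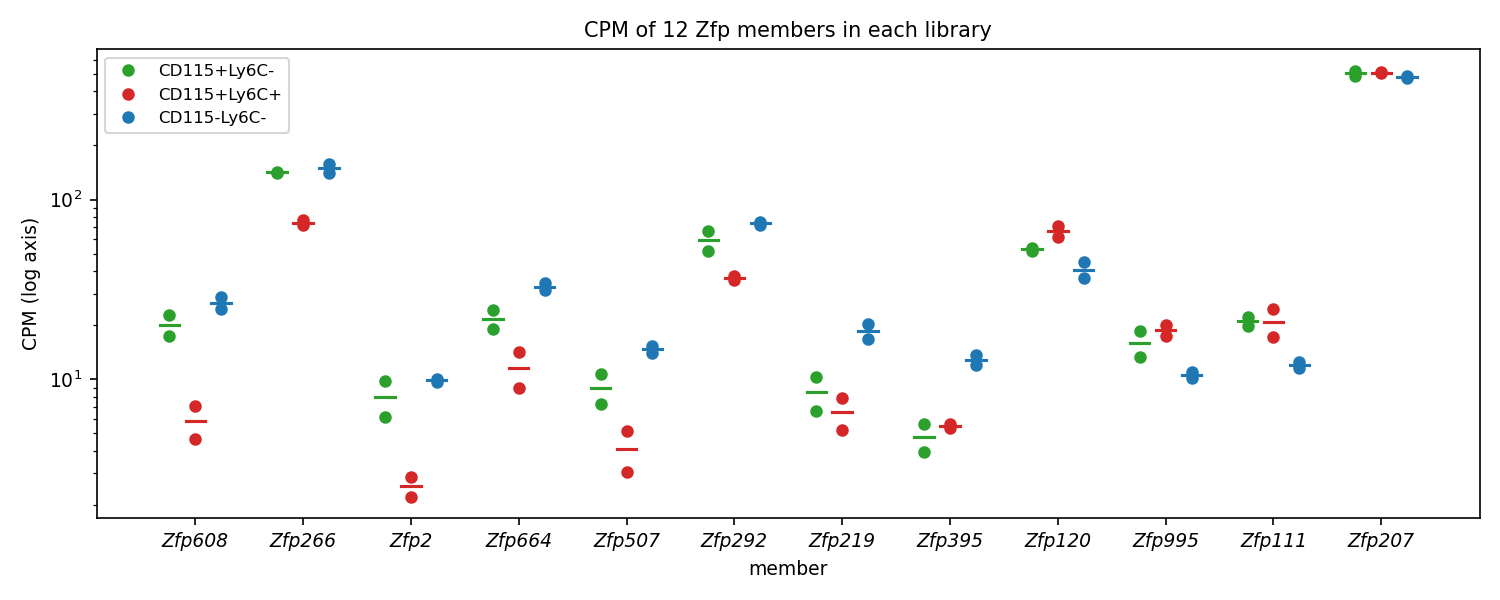
CPM on a log axis (y) in each library (points) of 12 members (x axis), with the mean of each subset as a bar, by subset colour. Zfp608, Zfp266 and Zfp2 have their 2 CD115+Ly6C+ libraries under the other 4, Zfp120 has them above, and Zfp207 stays between 476 and 522 CPM.

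The 9 members lower in CD115-Ly6C- were Zfp947, Zfp995, Zfp111, Zfp229, Zfp120, Zfp61, Zfp54, Zfp639 and Zfp277. Zfp120, a KRAB member, had 53.9 and 51.8 CPM in CD115+Ly6C-, 61.5 and 71.6 CPM in CD115+Ly6C+, and 36.8 and 44.8 CPM in CD115-Ly6C-. The 3 subsets did not overlap, with CD115+Ly6C+ on top and CD115-Ly6C- lowest. The log2 fold change against CD115+Ly6C+ was -0.70 ± 0.14 (edgeR adjusted p = 0.0057), and this was the 1 call of the 9 that held with each library left out. Zfp947 had the lowest value of the 9, -0.87 ± 0.27 (edgeR adjusted p = 0.030), with 10.5 and 12.9 CPM in CD115+Ly6C+ and 7.50 and 5.32 CPM in CD115-Ly6C-. Zfp995 had 17.4 and 20.2 CPM against 11 and 10.2 CPM, a log2 fold change of -0.83 ± 0.22 (edgeR adjusted p = 0.016). Zfp111 had 17.2 and 24.6 CPM against 11.5 and 12.5 CPM, a log2 fold change of -0.79 ± 0.21 (edgeR adjusted p = 0.017). In all 3 the CD115-Ly6C- libraries were the 2 lowest of the 6. Without CD115+Ly6C+ sample 2, 1 of the 9 calls held, and without CD115-Ly6C- sample 1 or sample 2, 3 held. Under library totals 3 held. Zfp61 overlaps Zfp94, and counts of Zfp277 were not whole in any library.

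CD115+Ly6C+ against CD115+Ly6C- gave fewer calls, nearly all downward. Lower in CD115+Ly6C+ were 13 members (4.73%), against 4.34% of all genes tested, a share near the background. Higher was 1 member (0.364%), against 5.26% of all genes tested. The median log2 fold change was -0.18, against -0.01 for all genes tested and -0.07 for other genes of the members' lengths. Among the 255 members at 1 FPKM or more in every subset, 11 (4.31%) were lower and 1 (0.392%) higher, with a median of -0.16. The largest falls were those of Zfp608 at -1.76 ± 0.25 (edgeR adjusted p = 0.0052) and Zfp2 at -1.64 ± 0.32 (edgeR adjusted p = 0.018). Both were among the 20 members that passed the level rule through the subsets where they were high, so their falls are no support. Zfp384, fused to other genes in human B cell leukaemia, had 20.7 and 21.5 CPM in CD115+Ly6C-, 11.8 and 8.74 CPM in CD115+Ly6C+, and 16.2 and 23.0 CPM in CD115-Ly6C-. Only its CD115+Ly6C+ libraries stood apart, with a log2 fold change of -1.04 ± 0.23 (edgeR adjusted p = 0.029). Next came the KRAB members Zfp773 (-1.03), Zfp266 (-0.93) and Zfp60 (-0.76), with Zfp664 (-0.90) and Zfp644 (-0.80). The list was closed by Zfp292, Zfp715, Zfp451, Zfp24 and Zfp62. The calls of Zfp608 and Zfp266 held with each library left out, while 2 of the 13 held without CD115+Ly6C- sample 1, 5 without CD115+Ly6C- sample 2, and 3 without CD115+Ly6C+ sample 1 or sample 2. With the length trend removed, 5 of the 13 held.

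The 1 member higher in CD115+Ly6C+ was Zfp488, known from oligodendrocyte development. It had 26.1 and 26.6 CPM in CD115+Ly6C-, 48.9 and 79.5 CPM in CD115+Ly6C+, and 48.0 and 26.6 CPM in CD115-Ly6C-. The CD115+Ly6C+ libraries differed widely from each other, and so did those of CD115-Ly6C-. The log2 fold change was 1.28 ± 0.30 (edgeR adjusted p = 0.033), and the call was lost without either CD115+Ly6C- sample (0.18 and 0.12) and without CD115+Ly6C+ sample 2 (0.15). Its counts were not whole in any library, so its level is uncertain.

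CD115-Ly6C- against CD115+Ly6C- gave 10 members higher (3.64%), against 8.43% of all genes tested, and 2 lower (0.727%), against 6.78%. The members' median log2 fold change was 0.15, against 0.02 for all genes tested and 0.06 for other genes of the members' lengths. Among the 255 members at 1 FPKM or more in every subset, 9 (3.53%) were higher and 2 (0.784%) lower, with a median of 0.13. Zfp395 had 3.93 and 5.68 CPM in CD115+Ly6C-, 5.63 and 5.39 CPM in CD115+Ly6C+, and 13.6 and 12 CPM in CD115-Ly6C-. It was high in CD115-Ly6C- alone, with a log2 fold change of 1.41 ± 0.27 against CD115+Ly6C- (edgeR adjusted p = 0.012). Zfp362 had 14.1 and 22.2 CPM, 21.5 and 18 CPM, and 47.1 and 30.6 CPM, again with CD115-Ly6C- on top and its 2 libraries far apart. Its log2 fold change was 1.10 ± 0.27 (edgeR adjusted p = 0.028). The others higher were Zfp974 (1.19), Zfp219 (1.13), Zfp420 (1.02), Zfp324 (0.99), Zfp202 (0.95), Zfp553 (0.78), Zfp943 (0.75) and Zfp369 (0.52). Lower were Zfp947 (-0.97) and Zfp111 (-0.80), both also lower against CD115+Ly6C+. No call of this comparison held with each library left out: without CD115+Ly6C- sample 1 the edgeR adjusted p of the 10 higher was 0.071 to 0.19, and 1 of them held without CD115-Ly6C- sample 1, and 4 without CD115+Ly6C- sample 2 or CD115-Ly6C- sample 2. Both lower calls were lost without each of these 4 samples, at 0.072 to 0.18. Counts of Zfp974, Zfp202 and Zfp369 were not whole in any library. Library totals gave 20 members higher, ended both lower calls and put the median of all genes at 0.14.

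By domain, members with and without the KRAB pattern were close in their counts. In CD115-Ly6C- against CD115+Ly6C+, 20.1% of all genes tested were higher and 19.2% lower. Of 154 KRAB members 42 (27.3%) were higher and 5 (3.25%) lower, with a median of 0.33. Of the 121 without the pattern 38 (31.4%) were higher and 4 (3.31%) lower, with a median of 0.38. The median was larger in classes with more fingers. Of 35 members with 0 to 4 fingers 4 (11.4%) were higher and 1 (2.86%) lower (median 0.21). This share higher was under that of all genes tested. Of 77 with 5 to 9 fingers 23 (29.9%) were higher and 5 (6.49%) lower (median 0.35). Of 102 with 10 to 14 fingers 31 (30.4%) were higher and 2 (1.96%) lower (median 0.37). Of 61 with 15 or more 22 (36.1%) were higher and 1 (1.64%) lower (median 0.44). Median transcript length was 3354, 3055, 3161 and 3867 nucleotides in these 4 classes, so the top class was also the longest. The differences between classes were not tested.

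Zinc finger genes outside the symbol rule also had positive medians. Of 28 tested Zbtb genes, which pair zinc fingers with a BTB domain, 8 (28.6%) were higher in CD115-Ly6C- than CD115+Ly6C+ cells. Lower was 1 (3.57%), and the median was 0.49. Of all genes tested, 20.1% were higher and 19.2% lower. Of 13 Zscan and Zkscan genes 6 (46.2%) were higher and 0 lower, with a median of 0.32. Of 35 other genes with a KRAB pattern and at least 3 fingers, 7 (20%) were higher and 0 lower, with a median of 0.24. The share higher of these 35 was near that of all genes tested, and the share lower was under it.

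Of the members known from blood cell development, 5 of 8 (62.5%) were higher in CD115-Ly6C- than CD115+Ly6C+ cells (median 0.74). The shares higher were 20.1% of all genes tested and 29.1% of all members. With only 8 members, the share of this list was not tested against these. Zfp521, a regulator of haematopoietic progenitors that binds the B cell factor encoded by Ebf1, had 9.28 and 14.4 CPM in CD115+Ly6C-, 9.53 and 7.48 CPM in CD115+Ly6C+, and 19.9 and 15 CPM in CD115-Ly6C-. Its CD115-Ly6C- libraries were the 2 highest, with a log2 fold change of 1.03 ± 0.27 (edgeR adjusted p = 0.017). Zfp335, needed for T cell maturation, had 10.8 and 14.1 CPM, 11.9 and 6.83 CPM, and 20.03 and 16.8 CPM, a log2 fold change of 0.97 ± 0.28 (edgeR adjusted p = 0.025). The summed B cell genes were also highest in CD115-Ly6C-. Zfp384 (0.93) and Zfp281 (0.55), a factor of embryonic stem cells, were higher too, beside Zfp608. Zfp608 passed the level rule through the subsets where it was high, so its rise is no support. Zfp91, a ubiquitin ligase of the noncanonical NF-kB pathway, had -0.33, Zfp148 0.38 and Zfp467 0.01, and these 3 did not pass. Without CD115+Ly6C+ sample 2 the edgeR adjusted p was 0.098 for Zfp521, 0.12 for Zfp335, 0.084 for Zfp384 and 0.099 for Zfp281. Without CD115-Ly6C- sample 1 it was 0.094 for Zfp521 and 0.10 for Zfp335, without CD115-Ly6C- sample 2 0.090 for Zfp384 and 0.19 for Zfp281, and without CD115+Ly6C+ sample 1 0.083 for Zfp281. With the length trend removed, 3 of the 5 calls were lost, at an edgeR adjusted p of 0.068 for Zfp521, 0.070 for Zfp335 and 0.30 for Zfp281, whose log2 fold change was then 0.25.

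Of all genes tested, 20.1% were higher in CD115-Ly6C- than CD115+Ly6C+ cells. Among the 10 members that act on RNA, ribosomes or the spindle, 1 (10%) was higher, and the median was 0.04. The 1 was Zfp346, which binds double-stranded RNA, with 18.6 and 18.9 CPM in CD115+Ly6C+ and 25.4 and 29.5 CPM in CD115-Ly6C- (log2 fold change 0.55 ± 0.16, edgeR adjusted p = 0.028). Its call was lost with the length trend removed (edgeR adjusted p = 0.11), without CD115-Ly6C- sample 2 (0.16) and without CD115+Ly6C+ sample 1 or sample 2 (0.092 and 0.094). Zfp598, the ubiquitin ligase that senses collided ribosomes, had 8.98 and 9.04 CPM in CD115+Ly6C+ and 6.34 and 6.32 CPM in CD115-Ly6C-, a log2 fold change of -0.51 that did not pass (edgeR adjusted p = 0.12). Zfp622, which acts in maturation of the large ribosomal subunit, had 68.3 and 72.5 CPM against 56.9 and 23.7 CPM. The 2 CD115-Ly6C- libraries of Zfp622 lay wide apart, and the edgeR adjusted p was 0.097.

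Of the 15 members linked to chromatin complexes or promoters, 9 (60%) were higher and 1 (6.67%) lower in CD115-Ly6C- than CD115+Ly6C+ cells (median 0.57). Of all genes tested, 20.1% were higher and 19.2% lower, and of all members 29.1% and 3.27%. The share of this list was not tested against these. Zfp644, a partner of the histone methyltransferases encoded by Ehmt1 and Ehmt2, had 45.3 and 38.2 CPM in CD115+Ly6C-, 26.1 and 22.0 CPM in CD115+Ly6C+, and 38.8 and 45.9 CPM in CD115-Ly6C-. Its CD115+Ly6C+ libraries were the 2 lowest (log2 fold change 0.82 ± 0.16, edgeR adjusted p = 0.0052). Zfp451, a SUMO ligase, showed the same order, with 64.3 and 63.2 CPM in CD115+Ly6C+ against 88.3 to 97.2 CPM in the other 4 libraries (0.57 ± 0.11, edgeR adjusted p = 0.0041). With the length trend removed, the calls of 6 of the 10 were lost, at an edgeR adjusted p of 0.10 for Zfp451, 0.11 for Zfp217 and Zfp687, 0.096 for Zfp592, 0.39 for Zfp260 and 0.062 for Zfp639. The log2 fold change was then 0.27 for Zfp451, 0.43 for Zfp217, 0.42 for Zfp592, 0.15 for Zfp260 and, with its call kept, 0.51 for Zfp644. Zfp592 and Zfp687, which share a complex with the chromatin reader encoded by Zmynd8, had log2 fold changes of 0.75 and 1.14. Counts of Zfp687 were not whole in any library, its 2 CD115-Ly6C- libraries had 32.2 and 15.9 CPM, and its gene overlaps Pi4kb. Zfp217 (0.75), Zfp260 (0.35) and Zfp362 (0.98) were higher as well, beside Zfp219 and Zfp292 above, and Zfp639 was lower (-0.50). Of these 10, Zfp644, Zfp451, Zfp219 and Zfp292 kept the call with each library left out, and the largest edgeR adjusted p of the other 6 was 0.32, for Zfp687 without CD115-Ly6C- sample 1. Each of the 6 was lost without CD115+Ly6C+ sample 2, at 0.077 for Zfp217, 0.11 for Zfp592 and Zfp362, 0.23 for Zfp687, 0.16 for Zfp260 and 0.084 for Zfp639. Without CD115-Ly6C- sample 1 it was 0.071 for Zfp217, 0.11 for Zfp592, 0.12 for Zfp362 and 0.21 for Zfp639. Zfp260 was lost without 5 of the 6 libraries, and without CD115-Ly6C- sample 2 it was at 0.28 and Zfp217 at 0.053. Without CD115+Ly6C+ sample 1 Zfp639 was at 0.097, and without CD115+Ly6C- sample 2 Zfp687 was at 0.056. Zfp410, known as an activator of Chd4, had 91.8 and 96.3 CPM in CD115+Ly6C+ and 92.9 and 91.5 CPM in CD115-Ly6C- and did not pass.

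Of the 7 members known for retroelements or imprints, 4 (57.1%) were higher in CD115-Ly6C- than CD115+Ly6C+ cells (median 0.47). The shares higher were 20.1% of all genes tested and 29.1% of all members. With only 7 members, the share of this list was not tested against these. Zfp809, which recognises the primer binding site of murine leukaemia virus, had 32.0 and 31.1 CPM in CD115+Ly6C-, 26.5 and 21.8 CPM in CD115+Ly6C+, and 35.7 and 36.8 CPM in CD115-Ly6C-. The 3 subsets did not overlap, and the log2 fold change was 0.59 ± 0.15 (edgeR adjusted p = 0.015). Zfp445, which protects imprints, had 112 and 91.7 CPM, 76.2 and 65.0 CPM, and 108 and 87.7 CPM in the same order (0.47 ± 0.15, edgeR adjusted p = 0.038). Zfp708 (1.27) and Zfp661 (0.98) also rose. Zfp568, which represses a placental transcript of Igf2, had 0.11, Zfp932 0.03 and Zfp90 0.23, and these did not pass. All 4 calls were lost without CD115+Ly6C+ sample 2 (edgeR adjusted p of 0.093 for Zfp809, 0.20 for Zfp445, 0.061 for Zfp708 and 0.10 for Zfp661) and without CD115-Ly6C- sample 1 (0.052, 0.23, 0.076 and 0.093). Without CD115-Ly6C- sample 2, that of Zfp809 was 0.067. With the length trend removed, Zfp445 was lost, with a log2 fold change of 0.15 (edgeR adjusted p = 0.45). Zfp809 overlaps Zfp599, Zfp445 overlaps Zkscan7, and Zfp708 overlaps Rslcan18.

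The genes through which KRAB members act did not move as 1 group. Of 31 such genes, 8 (25.8%) had higher and 3 (9.68%) had lower levels in CD115-Ly6C- than CD115+Ly6C+ cells, with a median of 0.09. Of all genes tested, 20.1% were higher and 19.2% lower, so the share higher was near the background. Trim28, the direct partner of the KRAB box, had 155 and 135 CPM in CD115+Ly6C+ and 139 and 154 CPM in CD115-Ly6C-, a log2 fold change of 0.02 ± 0.13 that did not pass (edgeR adjusted p = 0.94). Setdb1 had 45.4 and 52.0 CPM against 75.1 and 72.3 CPM, a log2 fold change of 0.60 ± 0.16 (edgeR adjusted p = 0.018). Mta3 of the NuRD complex had 56.1 and 56.7 CPM against 145 and 140 CPM (1.34 ± 0.10, edgeR adjusted p = 5.6e-05). Higher too were Chd3 (1.66), Chd4 (0.61), Ehmt1 (0.61), Smarcad1 (0.41), Uhrf1 (0.38) and Dnmt1 (0.32). Lower were Suv39h2 (-2.05), Rbbp4 (-0.32) and Sumo2 (-0.29). Parts of the same complexes had opposite signs, as with Chd4 and Rbbp4 of NuRD.

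In the genome, 163 of the 275 members, 114 of them with a KRAB pattern, lay in 37 clusters in which successive starts were at most 200 kb apart. In clusters 42 of 163 members (25.8%) were higher and 6 (3.68%) lower in CD115-Ly6C- than CD115+Ly6C+ cells (median 0.33). Outside clusters 38 of 112 (33.9%) were higher and 3 (2.68%) lower (median 0.39). Of all genes tested, 20.1% were higher and 19.2% lower. The largest cluster, chr17:21383707-22456689 of GRCm38, held 18 members, all with a KRAB pattern. It held 4 of the 9 lower members of this comparison, Zfp54, Zfp229, Zfp995 and Zfp947, and 1 higher, Zfp943, with a median of 0.10. The share lower, 4 of 18, was near the 19.2% of all genes tested. Zfp943 had 24.2 and 24.6 CPM in CD115+Ly6C-, 31.0 and 30.6 CPM in CD115+Ly6C+, and 39.2 and 43.0 CPM in CD115-Ly6C-, while Zfp54 had 38.2 and 31.4 CPM, 37.4 and 48.5 CPM, and 26.8 and 32.1 CPM. Members a few genes apart thus had opposite signs. The cluster at chr13:67038594-67827000 held 16 members, of which 4 were higher, Zfp712 and Zfp708 at its start among them (median 0.25). That at chr7:29768552-30169775 held 14 members, of which 5 were higher, Zfp146, Zfp260 and Zfp420 among them (median 0.45). On chr7:24081877-24316698, 3 of 8 members were higher and 2, Zfp111 and Zfp61, were lower. With the length trend removed, the edgeR adjusted p was 0.065 for Zfp943 and 0.059 for Zfp420. These clusters were singled out after their values were seen, and no test of position was made.

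**Figure D4:**
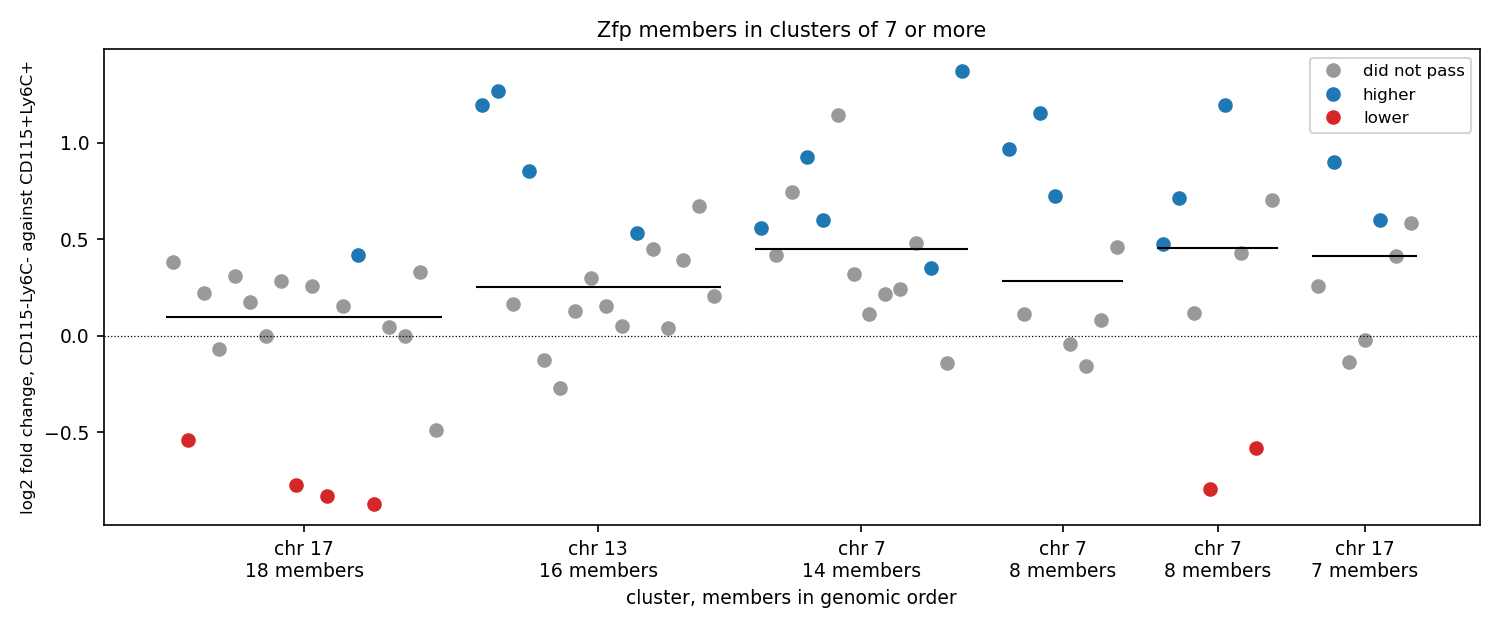
Log2 fold change in CD115-Ly6C- against CD115+Ly6C+ (y axis) of the members in the 6 clusters of 7 or more members (x axis, genomic order within each cluster), coloured by call, with the cluster median as a bar. The chromosome 17 cluster of 18 members holds 4 of the 9 lower members and has the lowest median, 0.10. Of all genes tested, 19.2% were lower.

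Promoters were read from the RefSeq table of GRCm38.p6, 250 bases before to 50 after each start, which gave 281 promoters of 228 members. CCAAT was found on either strand in 47.3% of them, against 37.4% of all 32851 promoters and 38.3% of the 11994 promoters of genes tested. It was found in 57.4% of the promoters of KRAB members and 34.9% of the others. The ETS core CCGGAAG was found on either strand in 23.5%, against 8.86% of all promoters and 18.1% of those of genes tested. The Sp motif GGGCGG was found on either strand in 47.7%, against 35.7% and 61.7%. Matches of different motifs were counted separately, also where they share bases. Of the 67 members higher in CD115-Ly6C- than CD115+Ly6C+ cells with a promoter in the table, 30 (44.8%) held CCAAT and 18 (26.9%) the ETS core, and of the 9 lower 5 and 3 did. Of the 152 that did not pass, 83 (54.6%) held CCAAT and 36 (23.7%) the ETS core.

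The 150 bases before the start are shown for 1 KRAB member that rose in CD115-Ly6C-, Zfp141, and 1 that fell, Zfp120, since both hold both motifs. They run 5′ to 3′ on the minus strand, and capitals mark CCAAT and CCGGAAG or their reverse complements.
Zfp141, chr7:42505754-42505903: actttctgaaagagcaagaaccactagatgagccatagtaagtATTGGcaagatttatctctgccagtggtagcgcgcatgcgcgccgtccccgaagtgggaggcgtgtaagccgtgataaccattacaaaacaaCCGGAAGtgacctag
Zfp120, chr2:150136679-150136828: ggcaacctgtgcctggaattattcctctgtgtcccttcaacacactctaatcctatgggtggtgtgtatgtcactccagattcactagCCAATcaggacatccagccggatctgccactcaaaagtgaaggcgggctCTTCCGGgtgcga
The ETS core began 15 bases before the start in Zfp141 and 13 bases before it in Zfp120. Zfp141 had 46.4 and 41.1 CPM in CD115+Ly6C-, 25.8 and 34.2 CPM in CD115+Ly6C+, and 53.9 and 62.5 CPM in CD115-Ly6C- (log2 fold change 0.96 ± 0.17, edgeR adjusted p = 0.0028). In the stretches shown, CCAAT began at -107 relative to the start in Zfp141 and at -62 in Zfp120. Each motif lay on opposite strands in the 2 genes. The 2 genes were chosen for their motifs and their opposite directions, and a link between motif and direction was not tested. A match is a description of these letters and shows no binding.

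Read sharing bore on 57 members whose counts were not whole in at least 1 library, 34 of them in all 6. In CD115-Ly6C- against CD115+Ly6C+, 14 of these 57 (24.6%) were higher and 4 (7.02%) lower, with a median of 0.12. Of the 218 members with whole counts in all libraries, 66 (30.3%) were higher and 5 (2.29%) lower, with a median of 0.39. The shares of all genes tested were 20.1% higher and 19.2% lower, so the share higher of the 57 was near the background. Another listed gene overlapped 26 members, 12 of them called in at least 1 comparison. In all, 93 members passed in at least 1 comparison and 182 passed in none.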

How the data were processed

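The submitters' processing notes name the mm10 build, Bowtie2 and RSEM, without versions; alignment settings were not given in the sources used here. Per the file headers, the authors deposited RSEM expected counts and FPKM per gene and sample. Genes without reads were taken as 0. No source says whether strand was kept, so overlapping and antisense genes cannot be told apart. Of the expected counts above 0, 12.6% were not whole (tolerance 1e-06).

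Differences were tested on rounded expected counts with edgeR 4.0.16 (quasi-likelihood, TMM scaling) under R 4.3.3. The filterByExpr filter (minimum count 10, minimum total 15) left 12127 genes, all 275 members among them. The 6 samples entered 1 fit, which was tested on simulated data. The edgeR adjusted p is adjusted after Benjamini and Hochberg over every gene tested, and 0.05 was the threshold. The SE is the log2 fold change divided by the square root of its F value. DESeq2 1.42.0 served as the alternative tool.

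Members, lists and comparisons were chosen with earlier results of these data known. Named were the 6 most abundant members, in each comparison up to 8 with the largest and 8 with the smallest log2 fold change among called members whose libraries did not overlap, the role lists, members next to the level threshold, members whose counts were not whole, and members of the largest clusters. Other names were chosen after their values were seen. Fingers, KRAB and SCAN patterns were sought in translated GENCODE M21 coding sequences. Clusters used RefSeq starts of GRCm38.p6, the assembly of mm10. The 10 length bands hold equal numbers of the genes tested, and values at the members' mix of lengths weight these bands by the number of members.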

Additional observations from a re-analysis of the deposited data

How the results depend on the processing

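Of 702 values of single named members under other settings, none changed direction, 535 kept their side of the threshold and 167 no longer passed. With 1 library left out, where a lone sample is assumed to vary like the other subsets, CD115+Ly6C+ against CD115+Ly6C- gave 0 to 2 members higher and 2 to 12 lower, CD115-Ly6C- against CD115+Ly6C- 0 to 10 higher and 0 to 2 lower, and CD115-Ly6C- against CD115+Ly6C+ 37 to 77 higher and 1 to 9 lower. In the first of these comparisons, no filter on low counts gave 2 higher and 23 lower, a fit of only the 2 subsets 2 higher, the DESeq2 test 20 lower and removal of the length trend 5 lower. In the second, library totals gave 20 higher, 0 lower and a median of 0.28, no filter gave 20 higher and 4 lower, and a fit of only the 2 subsets gave 1 lower. In the third, library totals gave 125 higher, 3 lower and a median of 0.54, and removal of the length trend 48 higher, 15 lower and a median of 0.20. Counts of 0 stand beside 9 higher in the first and 11 lower in the second comparison at an unadjusted p under 0.05, and 1 and 2 by DESeq2. Restricting the members to those with whole counts, chosen after seeing the data, gave 0 higher in the first, 6 higher and 0 lower in the second and 5 lower in the third comparison. The labels do not tie equal replicate numbers together, and the replicate differences of the subsets correlated at -0.004, -0.010 and 0.15 over genes. With a replicate block the second comparison gave 8 higher and 1 lower, and 69 of the 80 and 8 of the 9 calls of the third were kept. The cause of these shifts was not tested. With 2 samples per subset and low levels, differences that did not pass are not shown to be absent.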
